A study of Homo sapiens with 6 samples.

Results

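A set of 10 chromatin regulators, grouped as tumour suppressors of clear cell renal cell carcinoma (ccRCC), was followed in 786-O cells after NFE2L3 knockdown. They were taken by name from the count table, and all 10 of them were found among its 56303 genes: PBRM1, ARID2, ARID1A, SMARCA4 and SMARCB1 of the SWI/SNF complexes, and the histone modifiers SETD2, BAP1, EZH2, KMT2C and KMT2D. 786-O is an established ccRCC line that lacks functional VHL. The comparison was between 3 libraries from cells given a control siRNA, whose genotype is labelled wild type and whose time is labelled 0 h, and 3 libraries from cells given an siRNA against NFE2L3, labelled 48 h. The siRNA and the labelled time therefore cannot be told apart. The genotype label names NFE2L3 in 1 knockdown library and NFE2L4 or NFE2L5 in the others, while the titles and source names of all of them give NFE2L3. The libraries hold between 51828446 and 57391929 counted reads. The study's methods speak in general of independent trials, but neither they nor the labels tie these libraries to separate cultures, so the p-values may measure technical spread alone.

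The SWI/SNF complexes use the energy of ATP to slide or evict nucleosomes, and each holds 1 ATPase, either SMARCA4 or SMARCA2. The BAF form carries ARID1A or ARID1B, and the PBAF form carries PBRM1, ARID2 and BRD7. SETD2 trimethylates lysine 36 of histone H3 along transcribed genes, BAP1 removes ubiquitin from histone H2A, KMT2C and KMT2D methylate lysine 4 of histone H3 at enhancers, and EZH2, the catalytic subunit of PRC2, trimethylates lysine 27. In ccRCC, PBRM1, SETD2 and BAP1 lie on the arm of chromosome 3 that is commonly lost together with VHL and are often inactivated. EZH2 is the exception among these genes, since it is usually described as a driver and not a suppressor of this tumour. Read counts give transcript levels and say nothing about mutations of these genes in 786-O or about their proteins.

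Knockdown was strong. NFE2L3, a transcription factor of the cap'n'collar family, went from 116, 113 and 115 CPM in the control libraries to 19.5, 19.1 and 20.8 CPM after knockdown, where CPM is a count scaled by the TMM-adjusted size of its library. The log2 fold change was -2.54 (SE 0.0482, edgeR adjusted p = 3.98e-22), or 17.2% of control. Renal carcinoma markers such as PAX8 (206 to 246 CPM), VIM and VEGFA were present in every library, and 8 such markers summed to 4314 to 4341 CPM in control and 4411 to 4477 CPM in knockdown libraries (of plain library totals). The markers moved apart: PAX8 (log2 fold change -0.15) and CDH6 (-0.37) were lower, VEGFA (0.14), CA12 (0.17) and EPAS1 (0.13) were higher, and VIM (-0.096) and PAX2 (0.079) did not pass. The call of PAX8 was lost without knockdown replicate 3 (edgeR adjusted p = 0.0713), that of CDH6 without knockdown replicate 2 (0.0630) and that of EPAS1 without knockdown replicate 1 (0.0561) or 3 (0.0846). The part of these markers in any other result was not tested. All 7 markers of leukocytes, endothelium, fibroblasts, tubule and liver were under 1 CPM in every library, with CDH5 and UMOD at 0.

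Promoter sequences of the members came from RefSeq (GRCh38.p14), with 11 entries of 300 bases for 8 of the 10 genes, and BAP1 and ARID2 had no entry. They hold 57% to 88.7% G and C, beside a median of 58.7% over the 35116 promoters of that table. Factors of the NFE2L family pair with small MAF proteins and bind antioxidant response elements. The core of such an element, TGACNNNGC on either strand, was found in 1 member entry, that of KMT2D, and in 13.3% of all promoters. The letters GTCACNCT, a motif that the study names for NFE2L3, were found in no member entry and in 3.39% of all promoters. Neither was found in the 4 entries of SMARCA2. A match is a description of letters and not a binding site, and RefSeq starts differ from those of the annotation used for counting. The 250 bases before the start are shown for ARID1A, the member that was called, for the ATPase pair that differed (the first of several entries each), and for KMT2D, with the matched bases in capitals:
ARID1A, chr1:26695765-26696014, plus strand: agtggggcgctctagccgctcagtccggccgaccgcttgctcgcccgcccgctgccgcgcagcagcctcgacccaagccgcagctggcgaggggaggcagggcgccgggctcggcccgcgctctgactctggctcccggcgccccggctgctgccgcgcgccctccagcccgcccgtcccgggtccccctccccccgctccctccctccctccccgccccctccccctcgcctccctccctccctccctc
SMARCA4, chr19:10960780-10961029, plus strand: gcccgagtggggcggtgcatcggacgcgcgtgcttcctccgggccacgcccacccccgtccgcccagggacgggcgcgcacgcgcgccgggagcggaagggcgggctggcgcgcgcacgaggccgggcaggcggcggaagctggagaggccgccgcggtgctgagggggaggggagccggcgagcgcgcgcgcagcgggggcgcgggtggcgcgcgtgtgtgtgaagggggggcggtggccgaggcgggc
SMARCA2, chr9:2015097-2015346, plus strand: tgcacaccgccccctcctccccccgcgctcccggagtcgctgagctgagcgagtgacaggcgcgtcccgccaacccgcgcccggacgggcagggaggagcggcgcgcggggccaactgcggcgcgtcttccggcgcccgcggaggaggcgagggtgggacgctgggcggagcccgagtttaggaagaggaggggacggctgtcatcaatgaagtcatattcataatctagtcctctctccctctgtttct
KMT2D, chr12:49060795-49061044, minus strand: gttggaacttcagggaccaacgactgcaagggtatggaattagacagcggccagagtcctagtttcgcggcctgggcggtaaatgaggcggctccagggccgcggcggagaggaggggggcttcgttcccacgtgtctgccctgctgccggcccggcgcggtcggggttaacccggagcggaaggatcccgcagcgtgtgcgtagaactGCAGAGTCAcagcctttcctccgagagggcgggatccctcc
In KMT2D the match lies on the strand opposite to the gene and begins 41 bases before the start.

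The chromatin tumour suppressors changed little at the transcript level after NFE2L3 knockdown. Of the 10 genes, 1 was lower (ARID1A), none was higher and 9 did not pass an adjusted p under 0.05 from the quasi-likelihood test of edgeR. All 10 passed the filter on low counts and were tested, and 3 had an unadjusted p under 0.05 (ARID1A, SETD2 and SMARCB1). DESeq2 called ARID1A lower and SETD2 higher. Among all 19916 tested genes, 26.7% were called in either direction, 14.0% as lower and 12.7% as higher. The 10 genes lie between 17.6 and 220.1 CPM on average, and of the 6800 tested genes in that range 43.0% were called. No member reached a 2-fold change, and only 1.1% of all tested genes did so at an unadjusted p under 0.05. The log2 fold change was negative in 6 of the 10 genes and in 50.1% of all tested genes. Its median was -0.0042 over the 10 genes and -0.00066 over all tested genes. A p above the threshold does not show that a level stayed the same. The 95% intervals of the 10 log2 fold changes, each taken for 1 gene, ran from -0.21 at the lowest (86.6% of control) to 0.18 at the highest (113% of control). Like the p-values, these intervals may reflect technical spread alone. Of the tested genes, 60.5% had a larger absolute log2 fold change than ARID1A, the member with the largest, as had 49.3% of those in the same range of CPM. For 4 of the 10 genes the control and knockdown libraries did not overlap, and the same held for 39.5% of all tested genes.

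**Figure D1:**
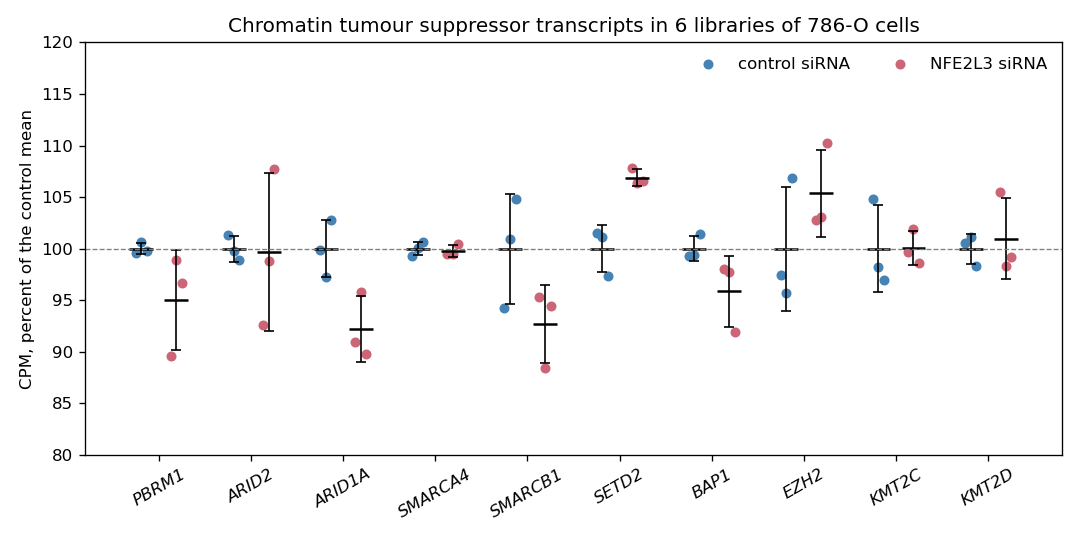
CPM of each gene in the 3 control (blue) and 3 NFE2L3 knockdown (red) libraries, as percent of the control mean (y axis, cut at 80 and 120), with horizontal bars for the means and error bars for the SD. The red points of ARID1A, PBRM1 and BAP1 lie below all blue points and those of SETD2 above them, while the 6 points of SMARCA4 lie close together.

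Levels per length of exon order the genes by abundance. On the RPKM scale (CPM divided by the kilobases of annotated exon), SMARCB1 was highest, with 26.0 to 30.8 RPKM over the 6 libraries, and SMARCA4 came next with 19.8 to 20.03 RPKM. EZH2 (16.7 to 19.3 RPKM) and SETD2 (16.2 to 17.9 RPKM) overlapped, with EZH2 the higher in 5 of 6 libraries. BAP1 stood apart from its neighbours at 11.9 to 13.1 RPKM. ARID1A (6.003 to 6.87 RPKM) and PBRM1 (5.80 to 6.51 RPKM) overlapped, with ARID1A the higher in 4 of 6 libraries. KMT2C (3.81 to 4.12 RPKM) and KMT2D (3.72 to 3.996 RPKM) overlapped as well, with KMT2C the higher in 5 of 6 libraries. ARID2 was lowest in each library, at 1.34 to 1.56 RPKM. Against all tested genes, SMARCB1 was at percentile 91.4 and ARID2 at percentile 38.1 of mean RPKM. The annotated exon length includes every exon of every transcript of a gene, so an RPKM understates genes with many alternative exons.

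The ATPase subunits SMARCA4 and SMARCA2 differed in their response. SMARCA4, the BRG1 ATPase, lies on chromosome 19 of GRCh38 and had 219, 221 and 222 CPM in the controls and 219, 219 and 221 CPM after knockdown. The groups overlapped, and the log2 fold change was -0.0031 (95% interval -0.081 to 0.074, edgeR adjusted p = 0.966). SMARCA2, the alternative ATPase BRM on chromosome 9, had 367, 338 and 358 CPM in control and 204, 203 and 211 CPM in knockdown libraries. It fell to 58.1% of control, with a log2 fold change of -0.78 (SE 0.0406, edgeR adjusted p = 5.31e-13) and a 95% interval of -0.87 to -0.70. Per length, the ratio of SMARCA4 to SMARCA2 was 0.931, 1.02 and 0.969 in the controls and 1.68, 1.69 and 1.64 after knockdown. On this scale both ATPases were about level in control cells, and SMARCA4 was the higher in every knockdown library. In CPM, SMARCA2 was the higher in every control library and SMARCA4 in every knockdown library. Their relative level thus depends on the annotated exon lengths, 11067 bases for SMARCA4 and 17300 for SMARCA2. The two-sided exact permutation test of the RPKM ratio gave p = 0.1, the smallest p that 3 libraries against 3 allow. The summed RPKM of both ATPases, which rests on the same lengths, went from 40.4 ± 0.813 to 31.8 ± 0.357 (SD, n = 3 each). SMARCA2 kept an adjusted p under 0.05 in all 16 alternative analyses, at log2 fold changes from -0.82 to -0.76.

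**Figure D2:**
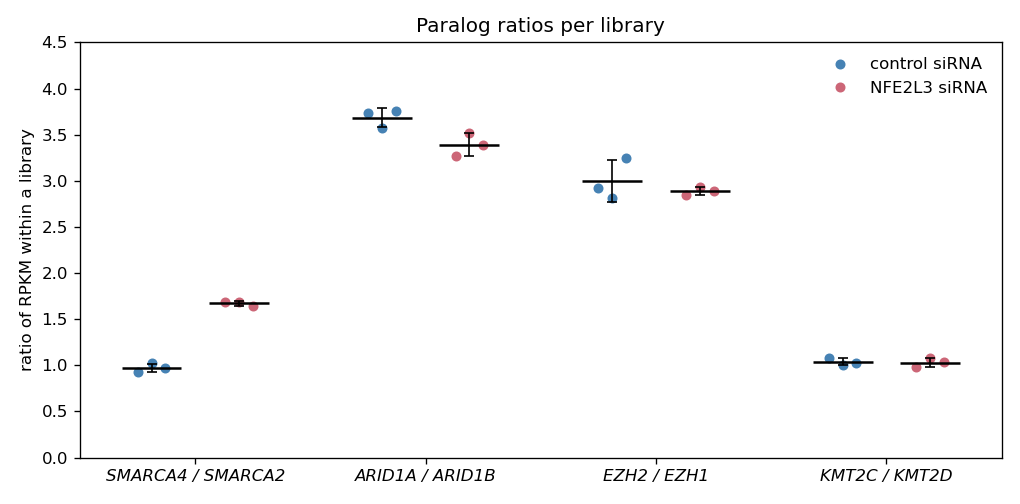
Ratio of the RPKM of each gene to that of its paralog within a library (y axis, from 0), with points for the 3 control (blue) and 3 NFE2L3 knockdown (red) libraries, horizontal bars for the means and error bars for the SD. SMARCA4 over SMARCA2 goes from 0.973 ± 0.0448 to 1.67 ± 0.0250.

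ARID1A, the DNA-binding subunit of BAF, was the member called lower. The gene spans chromosome 1, plus strand, from 26693236 to 26782104 in GRCh38 and had 106, 104 and 109 CPM in the controls and 96.8, 102 and 95.6 CPM after knockdown. Every knockdown library lay below every control library, the nearest pair being 102 and 104 CPM. The log2 fold change was -0.12 (SE 0.0423, 95% interval -0.20 to -0.030, edgeR adjusted p = 0.0417), or 92.2% of control. This call sat at the threshold: it was made in 10 of 16 alternative analyses, at adjusted p-values from 0.0219 to 0.18 over all 16. It was lost when control replicate 3 (log2 fold change -0.0979, edgeR adjusted p = 0.141), knockdown replicate 1 (-0.11, adjusted p = 0.138) or knockdown replicate 3 (-0.0986, adjusted p = 0.18) was left out. ARID1B, its paralog, had 79.9 ± 0.933 CPM in control and 80.1 ± 2.02 CPM in knockdown cells (SD, n = 3 each) and a log2 fold change of 0.0039 (95% interval -0.083 to 0.090). The ratio of ARID1A to ARID1B in RPKM was 3.69 ± 0.104 in control and 3.39 ± 0.125 in knockdown libraries (SD, n = 3 each; two-sided exact permutation p = 0.1). It was lower in every knockdown library than in any control library.

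SMARCB1, a core subunit of BAF and PBAF, lies on chromosome 22. It had 68.8, 73.7 and 76.5 CPM in the controls and 69.6, 64.6 and 69.0 CPM after knockdown. The groups overlapped, because control replicate 1 was below knockdown replicates 1 and 3. Its log2 fold change was -0.11 (95% interval -0.21 to -0.012, edgeR adjusted p = 0.0930), and the gene passed only when control replicate 1 was left out (log2 fold change -0.15, adjusted p = 0.0163).

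The PBAF subunits PBRM1 and ARID2 did not pass. PBRM1, a bromodomain protein and after VHL the most often mutated gene of ccRCC, spans chromosome 3 of GRCh38 from 52545352 to 52685917 on the minus strand. Its level was 62.2, 62.9 and 62.3 CPM in the controls and 56.0, 61.8 and 60.4 CPM after knockdown. All knockdown libraries were lower, but by little in 2 of them, and the log2 fold change of -0.074 had a 95% interval of -0.17 to 0.021 (edgeR adjusted p = 0.26). ARID2, which targets PBAF to chromatin, had 17.8, 17.6 and 17.4 CPM in control and 16.3, 17.4 and 18.96 CPM in knockdown libraries. The knockdown libraries lay on both sides of the controls, at a log2 fold change of -0.0052 (95% interval -0.14 to 0.13), the widest interval of the 10 genes. It had the fewest reads, 910 to 1015 per library. BRD7, another PBAF subunit, rose from 240 ± 6.62 to 272 ± 5.01 CPM (SD, n = 3 each; log2 fold change 0.18, edgeR adjusted p = 0.0011), and PHF10 did not pass (-0.080). BRD7 shares 42.3% of its exon bases with ADCY7 on the opposite strand. Whether reads were counted by strand is not stated for these files.

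SETD2 was the member with the largest positive log2 fold change. The gene spans chromosome 3 of GRCh38 from 47016429 to 47163967 on the minus strand, and its level was 169, 168 and 162 CPM in the controls and 179.6, 177 and 178 CPM after knockdown. The groups did not overlap. The log2 fold change was 0.096 (SE 0.0388, 95% interval 0.016 to 0.18), and the adjusted p of 0.0701 from edgeR missed the threshold. SETD2 passed in 2 of the 16 alternative analyses, with upper quartile scaling (log2 fold change 0.12, adjusted p = 0.0323) and with DESeq2 (0.0990, adjusted p = 0.0375).

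BAP1, the deubiquitinase, had 65.0, 65.1 and 66.4 CPM in the controls and 64.2, 64.0 and 60.2 CPM after knockdown. Knockdown replicate 3 was the lowest, and the others were about 1 CPM below the nearest control. The log2 fold change was -0.061 (95% interval -0.15 to 0.030, edgeR adjusted p = 0.344). BAP1 spans chromosome 3 of GRCh38 from 52401013 to 52410350 on the minus strand, near PBRM1.

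The region of chromosome 3 from the start of SETD2 to the end of PBRM1 (chr3:47016429-52685917 of GRCh38) holds 219 genes of the table, of which 133 were tested. With SETD2, BAP1 and PBRM1 among them, 15 were lower and 14 were higher, or 21.8%, beside 26.7% of all tested genes, and their median log2 fold change was 0.029. Among the neighbours, KLHL18, a cullin adaptor, fell from 20.3 ± 1.14 to 12.2 ± 1.27 CPM (SD, n = 3 each; log2 fold change -0.73, edgeR adjusted p = 3.74e-08), and the microtubule protein MAP4 fell from 372 ± 12.2 to 297 ± 10.01 CPM (-0.32). GNAI2, a G protein subunit, rose from 346 ± 10.6 to 475 ± 8.84 CPM (SD, n = 3 each; log2 fold change 0.46, edgeR adjusted p = 2.40e-09), and NT5DC2 rose by 0.48. These 4 neighbours were picked for the smallest adjusted p in the region at a mean of at least 5 CPM. Their larger changes than those of SETD2, BAP1 and PBRM1 follow from that choice. Of the 133 tested genes, 104 did not pass.

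**Figure D3:**
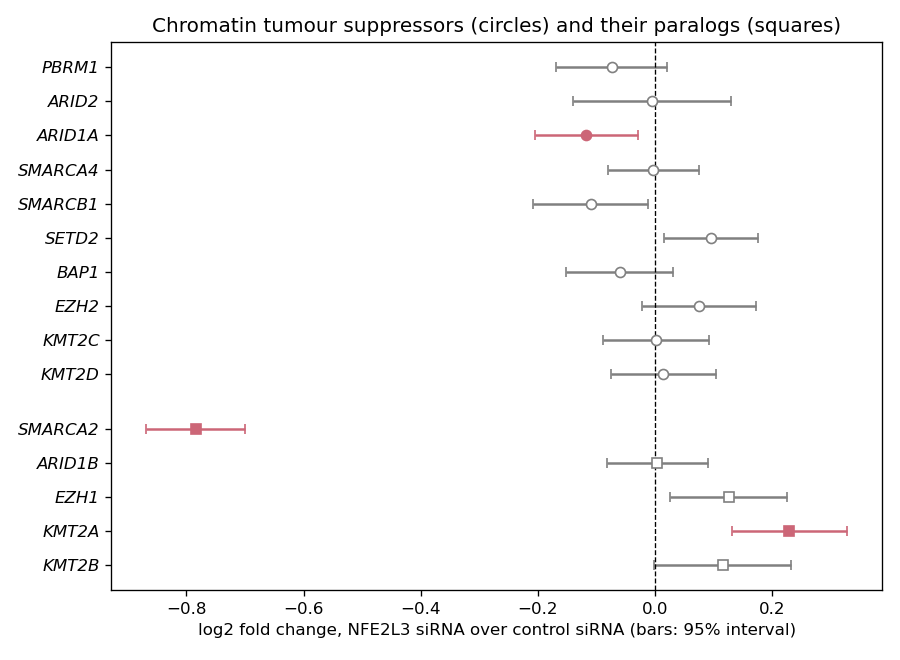
Log2 fold changes (x axis, knockdown relative to control, 3 libraries per group) of the 10 genes (circles) and of 5 paralogs (squares), with bars for the 95% interval from edgeR. Filled red marks have an adjusted p under 0.05, and the 10 circles lie between -0.12 and 0.10 while SMARCA2 lies at -0.78.

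EZH2 had 77.0, 75.6 and 84.4 CPM in the controls and 81.2, 81.4 and 87.1 CPM after knockdown. Control replicate 3 lay above 2 of the knockdown libraries. The log2 fold change was 0.075 (95% interval -0.023 to 0.17, edgeR adjusted p = 0.266), and none of the 16 alternatives made a call. EZH1, the second methyltransferase of PRC2, went from 40.8 ± 0.697 to 44.5 ± 1.87 CPM (SD, n = 3 each; log2 fold change 0.13, edgeR adjusted p = 0.0561) and passed in 4 alternatives, down to an adjusted p of 0.0248. The ratio of EZH2 to EZH1 in RPKM overlapped between the groups, at 2.996 ± 0.226 and 2.89 ± 0.0473 (SD, n = 3 each; two-sided exact permutation p = 0.7).

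Of 12 tested PRC2 genes, 4 were lower and 1 was higher, with a median log2 fold change of -0.065. This is 41.7%, beside 26.7% of all tested genes and 43.0% of those in the members' range of CPM. By role, 4 of 6 accessory subunits, 1 of 4 core subunits and neither catalytic subunit passed. PHF19, which reads methylated lysine 36 of histone H3, fell from 18.0 ± 1.21 to 12.1 ± 1.03 CPM (SD, n = 3 each; log2 fold change -0.57, edgeR adjusted p = 1.78e-06). Its relative MTF2 fell from 53.7 ± 2.29 to 39.8 ± 1.91 CPM (-0.43), JARID2 from 94.6 ± 1.35 to 76.1 ± 2.39 CPM (-0.31), and AEBP2 rose by 0.17. In the core, RBBP4 was lower (-0.16, edgeR adjusted p = 0.0173), a call lost when control replicate 1 or 3 or knockdown replicate 2 or 3 was left out (adjusted p = 0.0522 to 0.0745). The call of AEBP2 was lost without control replicate 2 or 3 or knockdown replicate 2 or 3 (adjusted p = 0.0657 to 0.0801). EED (-0.088) and SUZ12 (-0.053) did not pass. RBBP4 shares 18.0% of its exon bases with SYNC on the opposite strand, which was itself lower (-0.26, edgeR adjusted p = 0.0020).

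KMT2C and KMT2D, the large methyltransferases of enhancer chromatin, did not pass. KMT2C had 82.9, 77.6 and 76.6 CPM in the controls and 78.8, 80.5 and 77.9 CPM after knockdown, with a log2 fold change of 0.0011 (95% interval -0.089 to 0.091). KMT2D had 78.0, 78.4 and 76.3 CPM in the controls and 81.8, 76.2 and 76.9 CPM after knockdown, with a mean of 77.6 ± 1.14 and 78.3 ± 3.04 CPM (SD, n = 3 each) and a log2 fold change of 0.014 (95% interval -0.075 to 0.10). In both genes the groups overlapped, and the adjusted p-values from edgeR were 0.988 and 0.856. Their RPKM ratio was 1.04 ± 0.0391 in control and 1.03 ± 0.0476 in knockdown libraries (SD, n = 3 each; two-sided exact permutation p = 0.9). KMT2D shares 223 bases of exon with PRKAG1 on the same strand, 1.09% of its length. KMT2C has close partial copies elsewhere in the genome. Of these, BAGE2 had at most 4 reads in a library, and how the authors' counting placed reads fitting both copies was not stated.

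The paralog KMT2A, a methyltransferase of promoters, rose from 89.0 ± 6.54 to 104 ± 2.83 CPM (SD, n = 3 each; log2 fold change 0.23, edgeR adjusted p = 0.00071), while KMT2B did not pass (0.12, adjusted p = 0.14). Of 18 tested genes of the KMT2 complexes, 4 were higher and 1 was lower, with a median of 0.034. This is 27.8%, beside 26.7% of all tested genes and 43.0% of those in the members' range of CPM. PSIP1, which tethers KMT2A complexes to chromatin, rose from 665 ± 42.7 to 797 ± 24.0 CPM (SD, n = 3 each; 0.26), and ASH2L, a core subunit, fell by 0.25 on the log2 scale. PAGR1, a partner of KMT2C and KMT2D, rose by 0.24, but 66.0% of its exon bases belong also to AC009133.23 on the same strand, which rose by 0.26. KDM6A, the demethylase in the KMT2C and KMT2D complexes, did not pass (-0.038).

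Among 27 tested SWI/SNF subunits, the members included, 5 were lower and 6 were higher, or 40.7% beside 26.7% of all tested genes and 43.0% of those in the members' range of CPM, and the median was 0.00043.  In the core, 9 of 11 tested subunits did not pass, SMARCC1 (0.023), SMARCC2 (0.00043) and SMARCE1 (0.032) among them. ACTL6A, the actin-related subunit, fell from 418 ± 11.2 to 334 ± 6.005 CPM (SD, n = 3 each; log2 fold change -0.32, edgeR adjusted p = 4.82e-07), and BCL7A rose from 38.4 ± 0.456 to 47.7 ± 0.405 CPM (0.31, adjusted p = 1.13e-05). Of 7 subunits listed under BAF, not all of them particular to that form, 3 were lower (ARID1A, DPF2 and DPF3) and 3 were higher (DPF1, SS18 and SS18L1). SS18L1 rose from 8.52 ± 0.655 to 11.4 ± 0.442 CPM (SD, n = 3 each; 0.42), and the reader DPF2 fell from 23.9 ± 1.54 to 20.3 ± 0.283 CPM (-0.23). DPF1 (0.61) and DPF3 (-0.39) had large changes at under 4 CPM. BRD9, which marks the ncBAF form, rose by 0.17 from a control mean of 72.2 CPM. It shares 2.32% of its exon bases with ZDHHC11 on the same strand, which averaged 6.67 CPM and rose by 0.96. Leaving out 1 library ended the call of BRD9 (knockdown replicate 2, edgeR adjusted p = 0.0688), of SS18 (control replicate 2, 0.0532, or knockdown replicate 2, 0.128) and of DPF3 (control replicate 2 or 3 or knockdown replicate 1 or 2, 0.0831 to 0.112). DPF1, DPF2, DPF3, SS18, BRD7, BRD9, AEBP2 and the genes with no call that are neither members nor paralogs were named after their values were seen.

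**Figure D4:**
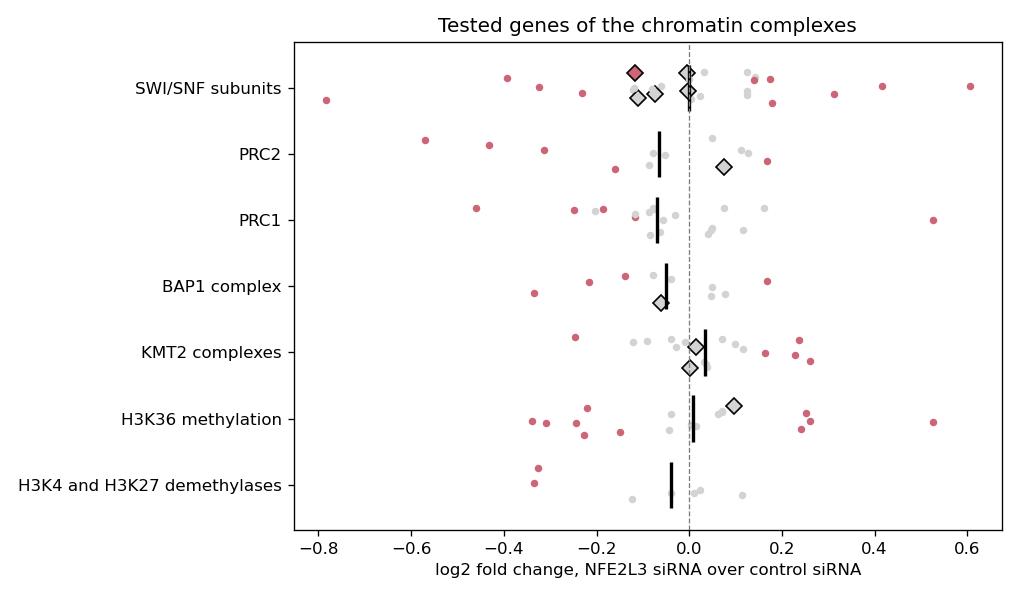
Log2 fold changes (x axis, knockdown relative to control, 3 libraries per group) of the tested genes of 7 groups of chromatin genes, red where the gene was called by edgeR and grey where not, with the 10 followed genes as outlined diamonds and black bars at the group medians. The 10 diamonds lie between -0.12 and 0.10 and the 98 other genes between -0.78 and 0.61, a range that widens with the number of genes. The highest point, DPF1 at 0.61, averaged only 1.70 CPM in control and 2.58 CPM in knockdown libraries. Of all 108 genes, 69 were not called. Vertical scatter has no meaning, and a gene of several groups is drawn in each.

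Of 10 tested genes of the BAP1 complex, 3 were lower and 1 was higher, or 40.0% beside the same 26.7% and 43.0%. KDM1B, a demethylase that binds this complex, fell from 65.1 ± 1.08 to 51.6 ± 1.67 CPM (SD, n = 3 each; log2 fold change -0.34, edgeR adjusted p = 2.73e-06). OGT (-0.14) was lower and FOXK1 (0.17) higher, and each lost its call in 2 leave-one-out fits, OGT without control replicate 1 or knockdown replicate 1 (edgeR adjusted p = 0.0616 in both) and FOXK1 without control replicate 3 (0.0518) or knockdown replicate 3 (0.0585). The call of MBD6 (-0.22, edgeR adjusted p = 0.0437) was lost in 10 of 16 alternatives. ASXL1 (0.049) and ASXL2 (0.077), which activate BAP1, did not pass. Of 20 tested PRC1 genes, whose product on histone H2A BAP1 removes, 4 were lower and 1 was higher. This is 25%, beside the same 26.7% and 43.0%. RNF2, 1 of the 2 listed ligases, fell from 24.7 ± 0.91 to 17.9 ± 0.16 CPM (SD, n = 3 each, log2 fold change -0.46, edgeR adjusted p = 1.17e-06). The other, RING1, went from 25.1 ± 1.17 to 25.8 ± 0.591 CPM and did not pass (0.040, edgeR adjusted p = 0.656). PHC2 fell by 0.25 and PCGF3 by 0.19 on the log2 scale. The call of PCGF3 was lost without knockdown replicate 2 (edgeR adjusted p = 0.0604) and without knockdown replicate 3 (0.0716).

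Of 18 tested genes that write, erase or read methylation of lysine 36 of histone H3, 6 were lower and 4 were higher, or 55.6%, beside 26.7% of all tested genes and 43.0% of those in the members' range of CPM, with a median of 0.0086. NSD1, another methyltransferase, fell from 85.7 ± 1.32 to 69.2 ± 1.57 CPM (SD, n = 3 each; log2 fold change -0.31, edgeR adjusted p = 3.98e-06). The demethylase KDM2B, also a PRC1 subunit, rose from 23.1 ± 0.151 to 33.3 ± 0.545 CPM (0.53, adjusted p = 3.00e-08), and KDM4C fell from 46.1 ± 0.426 to 36.4 ± 0.700 CPM (-0.34). Exons listed under KDM4C are shared in part (32.1% of its bases) with RP11-146B14.1 on the same strand, which fell by 0.41. Of 7 tested demethylases of lysines 4 and 27, 2 were lower and none was higher, or 28.6% beside the same 26.7% and 43.0%. These were KDM1B and KDM5B, and KDM5B fell from 66.8 ± 0.958 to 53.3 ± 0.584 CPM (SD, n = 3 each; -0.33, edgeR adjusted p = 2.59e-06). KDM5C, also mutated in ccRCC, did not pass (0.010).
Over all of these groups, 108 genes were tested, and 24 were lower and 15 were higher, or 36.1%, which lies between the 26.7% of all tested genes and the 43.0% of those in the members' range of CPM. The other 98 held 23 lower and 15 higher genes, beside 1 and 0 in the 10 members. No test of this difference was made, because the genes were chosen with results of these data known.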

How the data were processed

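The RNA-seq comprised 3 control siRNA and 3 NFE2L3 siRNA libraries of 786-O cells. According to the methods and processing notes, Trimmomatic 0.36 served the authors for trimming. They then collapsed reads sharing a molecular identifier, aligned them to GRCh38 (Ensembl release 87) using STAR 2.5.3a and counted exonic reads with featureCounts of Subread 1.5.1. The deposited values are raw counts per gene, with exon lengths. Of counts under 30, 67.6% to 69.9% per library were even, which is how counts of both mates of a pair would look, so halved counts were an alternative.

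CPM, RPKM and tests were derived here from these counts in R 4.3.3 by edgeR 4.0.16 (TMM, filterByExpr with a minimum count of 10, quasi-likelihood test, Benjamini-Hochberg adjustment over 19916 tested genes) and DESeq2 1.42.0 and limma 3.58.1 as alternatives. Standard errors and 95% intervals were derived from the fold change, its F statistic and the degrees of freedom. The procedure was tested on simulated data. The spread between replicates was a biological coefficient of variation of 4.76%. Within each group, every pair of libraries differed by more than sampling noise. Permutation tests used SciPy 1.17.1.

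The members and gene lists were chosen with earlier results of these data known, so lists are described by counts and medians and carry no test. Named genes are the members, NFE2L3, 5 paralogs, up to 4 other genes with the smallest adjusted p per list (and, at a mean of at least 5 CPM, in the chromosome 3 region) and genes whose exons overlap a member. Members overlap SMIM4 (PBRM1), RP5-968P14.2 (ARID1A), DERL3 (SMARCB1), PRKAG1 and RP11-386G11.5 (KMT2D), at up to 2.40% of the member's exon bases. GRCh37 reference files were not used. The values of some listed genes are not reported here.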

Additional observations from a re-analysis of the deposited data

How the results depend on the processing

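Counts of calls, list medians and the log2 fold changes of members and of named genes that were called were recomputed under 16 alternatives: a replicate block, halved counts, 3 other scalings (RLE, upper quartile, none), 3 other tests (DESeq2, limma-voom, edgeR's exact test), 2 other filters (none, or 10 counts per library as the minimum) and the omission of each library. The RPKM ratios and sums were not recomputed. The counts of lower and higher genes over the whole table stayed within 1.5 times under each of them, from 2210 to 3013 lower and from 1966 to 2902 higher genes. The number of lower members, 1 with TMM and all libraries, was 0 with upper quartile scaling, with no filter (where ARID1A had an adjusted p = 0.05003) and with the replicate block, and ranged from 0 to 2 when 1 library was left out. The number of higher members, 0 with TMM and all libraries, was 1 with upper quartile scaling and with DESeq2, and that member was SETD2. Upper quartile scaling turned the majority of all calls from lower (2783 of 5320 with TMM) to higher (2422 lower and 2902 higher). The median log2 fold change of all tested genes was -0.012 with no scaling and 0.019 with upper quartile scaling. How each list median moved is not reported here, so list medians near 0 should not be read as stable in size or sign. The log2 fold changes of PBRM1, SETD2, BAP1, ARID1A, SMARCB1 and EZH2 kept their sign in all alternatives, and those of ARID2, SMARCA4, KMT2C and KMT2D, none of which was called in any, changed sign in 1 to 5 of them. None of the called genes that the text names changed sign in any of the 16, apart from SYNC and PRKAG1, for which this was not computed. For BRD7, BRD9, DPF1, DPF2, DPF3, SS18, AEBP2, the markers and 3 genes that overlap named ones, this was computed after the data were seen. Same-numbered control and knockdown libraries did not deviate together (correlations of -0.018, -0.067 and -0.026). These correlations cannot show whether same-numbered libraries were prepared as pairs. The replicate block took the whole-table counts to 2504 lower and 2278 higher. With 3 libraries a group and 910 reads or more per member in each library, the members had standard errors of 0.038 to 0.065 on the log2 scale.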
